A study of Mus musculus with 6 samples.

Results

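The genes described here are 10 transcription factors of the nuclear receptor superfamily that set lipid, bile acid, drug and hormone responses of the liver: Nr1h4 (FXR), Nr0b2 (SHP), Nr1i2 (PXR), Nr1i3 (CAR), Rxra (RXR alpha), Nr5a2 (LRH-1), Hnf4a (HNF4 alpha), Nr3c1 (the glucocorticoid receptor, GR), Thrb (thyroid hormone receptor beta, TR beta) and Pparg (PPAR gamma). They were chosen by gene name, and all 10 were found among the 20673 genes of the deposited tables and had enough reads to be tested. Liver RNA of C57BL/6J mice of around 12 weeks of age was sequenced after 3 days on a regular diet (RD, 3 livers) or a high-cholesterol diet (HCD, 3 livers), to ask how short cholesterol feeding changes the liver transcriptome. RD was a standard rodent chow, and HCD was a different feed with cocoa butter, more fat, added cholesterol and sodium cholate, a bile salt, so that the parts played by cholesterol, fat and cholate cannot be told apart. The labels give the livers as untreated and name no engineered allele. Males and females were both used in the study, and the labels do not give the sex of each liver.

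Most nuclear receptors are switched on by a small lipid-soluble ligand and bind short DNA repeats, many of them as a pair with RXR. FXR senses bile acids and induces SHP, an unusual member that has no DNA-binding domain and that represses other factors, among them LRH-1 and HNF4 alpha, at genes of bile acid synthesis. PXR and CAR sense foreign compounds and some bile acids and induce genes of drug metabolism, GR answers to glucocorticoids, TR beta is the main thyroid hormone receptor of hepatocytes, and PPAR gamma drives lipid storage and is more abundant in fat than in normal liver.

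RD libraries held 13771630 to 23129576 counts and HCD libraries 13935491 to 18545549, and counts of the same diet varied between livers by 27.8% (the biological coefficient of variation in edgeR). Hepatocyte markers were high throughout, with 8 of 8 detected and a summed level of 96210.2 to 122757 CPM with RD and 101317 to 141335 CPM with HCD (CPM, counts brought to a common library total with TMM factors). The library labelled HCD replicate 1 stood apart. It held 5032 counts of Xist, the RNA of the inactive X chromosome of female cells, where the other 5 libraries held 0, and it held 0 counts of the Y-linked genes Ddx3y, Eif2s3y, Kdm5d and Uty, which every other library expressed. It was also the library with 445 CPM of Cyp2b9, a cytochrome P450 gene known for female-biased expression in mouse liver. Log2 fold changes without this library are therefore given for the 10 receptors and for the other named genes that passed the test. Because liver is a mixture of cells, less RNA per cell and fewer cells of a type cannot be told apart.

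Receptor mRNA levels, compared per gene length as FPKM (fragments per kilobase of gene and per sequenced total), spanned from 216 ± 22.9 FPKM (SD, n = 3) for Hnf4a, which maintains hepatocyte identity, to 2.89 ± 0.541 for Pparg in RD livers. In RD the order was Hnf4a, Rxra at 138 ± 9.199, Nr1h4 at 58.5 ± 11.8, Nr0b2 at 45.9 ± 13.04, Nr1i2 at 29.4 ± 5.77, Nr5a2 at 15.2 ± 2.97, Nr3c1 at 13.9 ± 0.813, Thrb at 8.82 ± 1.04, Nr1i3 at 5.72 ± 2.68 and Pparg. The ranges over RD livers overlapped between the neighbours Nr1h4 and Nr0b2, Nr0b2 and Nr1i2, Nr5a2 and Nr3c1, and Nr1i3 and Pparg, so the order within each of these pairs is not settled. In HCD livers Hnf4a was again highest at 172 ± 27.1 FPKM, but Nr0b2 came next at 118 ± 28.9, ahead of Rxra at 87.2 ± 4.76, and the ranges of these neighbours overlapped. Nr1h4 at 56.6 ± 12.5 FPKM and Nr1i2 at 42.3 ± 6.02 each stood clear of their neighbours in HCD. The 5 lowest, Nr3c1 at 13.7 ± 1.33, Nr5a2 at 13.6 ± 2.75, Nr1i3 at 9.42 ± 4.98, Thrb at 5.84 ± 1.82 and Pparg at 5.43 ± 2.49 FPKM, overlapped from one neighbour to the next.

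**Figure D1:**
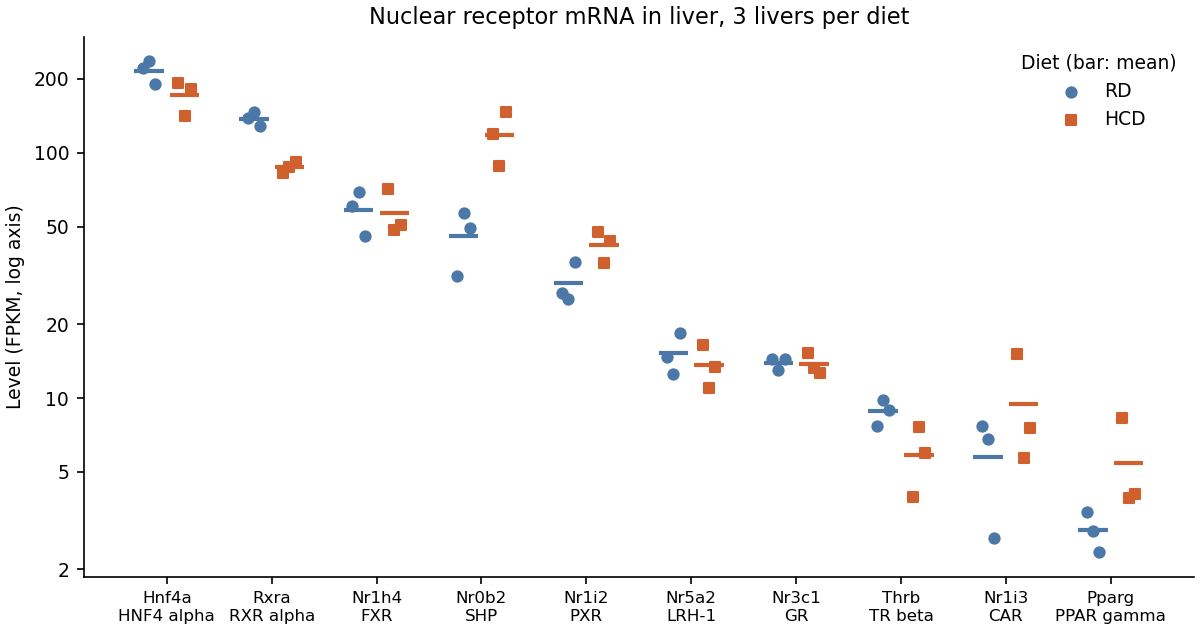
Level of each receptor mRNA in FPKM, on a log axis, for the 3 RD livers (circles) and the 3 HCD livers (squares), with a bar at the mean of each diet. Nr0b2 and Pparg were higher in every HCD liver and Rxra and Thrb lower in every HCD liver than in any RD liver. Hnf4a, Nr1h4, Nr1i2, Nr5a2, Nr3c1 and Nr1i3 overlapped between diets.

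Of the 10 receptors, Nr0b2 rose and Rxra fell with HCD at an adjusted p under 0.05, taken from edgeR's quasi-likelihood test and adjusted by Benjamini-Hochberg for the 13105 genes that had enough reads. Over all genes tested, 3.27% passed this threshold, 1.95% higher and 1.32% lower. At a raw p no higher than 0.05 the receptors counted 5 of 10, with Nr0b2, Nr1i2 and Pparg higher and Rxra and Thrb lower, against 20.9% of all genes. The CPM of the 2 diets did not overlap for 6 of 10, with Nr0b2, Nr1i2 and Pparg above and Rxra, Thrb and Hnf4a below, against 27.6% of all genes. In FPKM Nr1i2 and Hnf4a did overlap. The median log2 fold change of the 10 receptors was -0.06 (-0.18 without HCD replicate 1, the lowest with 1 liver left out), and that of all genes tested was 0.01. Neither call held when a trend of fold change with gene length was removed, nor in most of the fits that left out 1 liver, as given gene by gene.

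**Figure D2:**
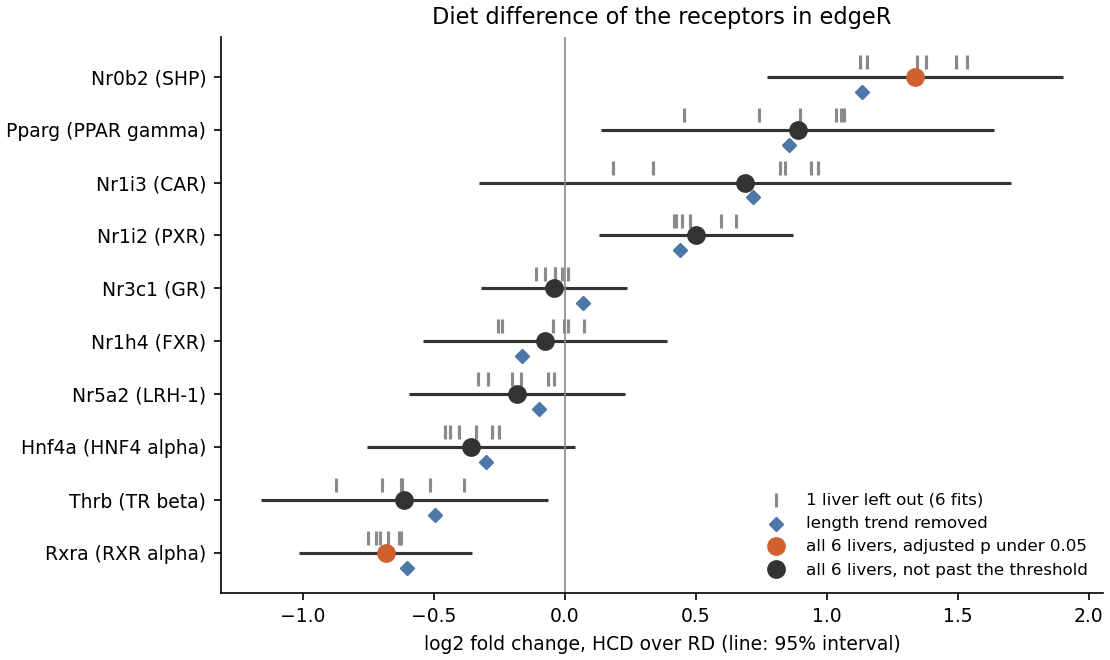
Log2 fold change of HCD over RD for each receptor from edgeR (large circles, orange where the adjusted p is under 0.05) with its 95% interval (lines), and the same after leaving out each liver in turn (grey ticks) or removing the length trend (diamonds). All estimates for Nr0b2 lay above 0 and all for Rxra below 0, whereas those of Nr1h4 and Nr3c1 fell on both sides of 0.

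Bile acid sensing was read from FXR and its induced repressor SHP. Nr1h4, the gene of FXR (ENSMUSG00000047638, chromosome 10), was at 96.4, 111 and 70.3 CPM in RD replicates 1 to 3 and at 108, 76.9 and 77.6 CPM in HCD replicates 1 to 3. The diets overlapped, with a log2 fold change of -0.08 (standard error 0.20, 95% interval -0.54 to 0.39, edgeR adjusted p = 0.865). The interval allows a change of up to 0.54 down or 0.39 up on the log2 scale, and the sign depended on which liver was left out (from -0.26 to 0.07, and -0.26 without HCD replicate 1). Nr0b2, the gene of SHP (ENSMUSG00000037583, chromosome 4), was at 24.4, 44.7 and 37.5 CPM in the RD livers and at 89.2, 69.4 and 111 CPM in the HCD livers. Every HCD liver was above every RD liver, and the mean rose from 35.5 ± 10.3 to 89.7 ± 20.6 CPM (SD, n = 3 per diet). The fitted rise was 2.53-fold, or 1.34 on the log2 scale (standard error 0.25, 95% interval 0.77 to 1.90, edgeR adjusted p = 0.0303). Without HCD replicate 1 it was 1.34 with an adjusted p of 0.0499, and without HCD replicate 2 the adjusted p was 0.0353, both in edgeR. Leaving out RD replicate 1, 2 or 3 or HCD replicate 3 kept the direction (log2 fold change 1.13 to 1.53 over the 6 fits) but raised the edgeR adjusted p to as much as 0.106. Nr0b2 is also in the shortest of 10 equal groups of genes by length, whose median log2 fold change was 0.32, and with the length trend removed its rise was 1.14 with an edgeR adjusted p of 0.0628. Of 6 red blood cell genes 5 were tested, 4 with a higher and 1 with a lower estimate with HCD, and 2 passed the test. These were Hba-a1 (alpha globin), with a log2 fold change of 2.41 that was 2.70 without HCD replicate 1, and Hbb-bs (beta globin), with 2.28 and 2.53, and both have near-identical copies that can share reads. Both calls were lost without RD replicate 1, RD replicate 2 or HCD replicate 3. Alas2, the first enzyme of heme synthesis in red cell precursors, had the lower estimate (-0.70, edgeR adjusted p = 0.612) and was at 105, 105 and 154 CPM with RD and 8.24, 96.99 and 119 CPM with HCD. The 6 genes summed to 138 to 239 CPM with RD and to 177, 468 and 452 CPM in HCD replicates 1 to 3. The sum of HCD replicate 1 lay within the RD range, but it includes Alas2, which was at 8.24 CPM in that library. In CPM, 3 genes of the list were higher in every HCD liver, HCD replicate 1 included, than in any RD liver. The part of blood in the Nr0b2 result was not tested.

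The ratio of Nr0b2 to Nr1h4 within each liver, taken from FPKM and chosen after the values were seen, is given as a description with no test. It was 0.515, 0.823 and 1.09 in RD replicates 1 to 3 and 1.67, 1.84 and 2.90 in HCD replicates 1 to 3. SHP mRNA was thus below FXR mRNA in RD replicates 1 and 2 and above it in RD replicate 3 and in all 3 HCD livers. Relative to the factors that SHP represses, the ratio of Nr0b2 to Nr5a2 was 2.13, 4.52 and 2.69 in RD and 7.20, 8.06 and 10.96 in HCD. The ratio of Nr0b2 to Hnf4a was 0.142, 0.240 and 0.259 in RD and 0.618, 0.629 and 0.805 in HCD, so neither ratio overlapped between diets.

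Among 19 listed genes that FXR or SHP are known to regulate, 18 were tested and 4 passed the test, 2 higher and 2 lower with HCD, and the list includes Nr0b2 itself. The largest fall was that of Cyp8b1, the sterol 12-alpha-hydroxylase that makes cholic acid, from 507, 342 and 383 CPM in the RD livers to 26.3, 14.9 and 35.2 CPM in the HCD livers. Its log2 fold change was -4.01 (standard error 0.33, edgeR adjusted p = 0.00226), and it was called in 6 of 6 fits that left out 1 liver, with -4.04 without HCD replicate 1. Cyp7a1, the rate-limiting enzyme of bile acid synthesis, went from 109, 102 and 102 CPM to 48.9, 29.99 and 13.7 CPM. Its log2 fold change was -1.75 (standard error 0.37, edgeR adjusted p = 0.0453), and it was called in 2 of the 6 fits, with -2.25 without HCD replicate 1. Slc51b, a subunit of the basolateral bile acid exporter, was nearly absent in RD livers at 0, 0.0698 and 0.174 CPM and was at 3.03, 2.55 and 1.62 CPM in HCD livers. With counts of 0, 1 and 4 in RD, its fitted log2 fold change of 4.72 (edgeR adjusted p = 0.0258, called in 3 of the 6 fits, and 4.52 without HCD replicate 1) depends on the prior count and bounds nothing. Abcb11, the bile salt export pump, stood at 644, 766 and 831 CPM with RD and 643, 755 and 789 CPM with HCD, with a log2 fold change of -0.04 (standard error 0.17, edgeR adjusted p = 0.925) that was 0.05 without HCD replicate 1. At a raw p no higher than 0.05 the list counted 4 higher and 4 lower of 18, against 11.1% and 9.81% of all genes tested. Its median log2 fold change was -0.05 (-0.11 to -0.007 with 1 liver left out). The number called fell to 1 without RD replicate 1 or 2, and to 2 without RD replicate 3 or HCD replicate 3, and it was 7 with DESeq2.

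The 250 bases before the annotated start of Nr0b2, of both Rxra starts, and of Cyp8b1 and Slc51b are shown because these are the receptors that passed the test and 2 of the FXR or SHP targets that did. Cyp7a1, which also passed, is not shown. Sequences and positions are from RefSeq on GRCm38.p6, each written 5′ to 3′ along the gene, at chr4:133553126-133553375 (plus strand) for Nr0b2, chr2:27676951-27677200 and chr2:27709042-27709291 (plus strand) for Rxra, chr9:121916306-121916555 (minus strand) for Cyp8b1 and chr9:65422774-65423023 (minus strand) for Slc51b. Capitals mark the hexamer AGGTCA, the core that most nuclear receptors bind, and CAAGG, the core of the extended element to which LRH-1 binds as a monomer, on either strand (TGACCT and CCTTG on the other).
Nr0b2: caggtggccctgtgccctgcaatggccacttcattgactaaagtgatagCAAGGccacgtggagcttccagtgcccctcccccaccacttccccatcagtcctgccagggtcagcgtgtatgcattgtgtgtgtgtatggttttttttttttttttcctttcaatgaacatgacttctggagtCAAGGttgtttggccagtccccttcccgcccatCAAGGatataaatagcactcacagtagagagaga
Rxra, first start: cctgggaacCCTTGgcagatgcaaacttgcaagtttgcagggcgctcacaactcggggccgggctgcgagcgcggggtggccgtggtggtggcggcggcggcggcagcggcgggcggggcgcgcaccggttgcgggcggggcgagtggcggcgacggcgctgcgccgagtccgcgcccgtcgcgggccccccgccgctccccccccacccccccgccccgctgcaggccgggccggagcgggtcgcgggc
Rxra, second start: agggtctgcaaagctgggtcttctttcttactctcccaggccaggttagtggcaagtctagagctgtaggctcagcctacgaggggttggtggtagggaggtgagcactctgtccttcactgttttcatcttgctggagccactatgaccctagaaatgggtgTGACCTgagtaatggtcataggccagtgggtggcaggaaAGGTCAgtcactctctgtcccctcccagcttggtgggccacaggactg
Cyp8b1: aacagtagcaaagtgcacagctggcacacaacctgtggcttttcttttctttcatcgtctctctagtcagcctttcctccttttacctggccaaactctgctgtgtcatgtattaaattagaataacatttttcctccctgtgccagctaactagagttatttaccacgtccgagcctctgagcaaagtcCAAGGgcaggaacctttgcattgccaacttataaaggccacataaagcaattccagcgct
Slc51b: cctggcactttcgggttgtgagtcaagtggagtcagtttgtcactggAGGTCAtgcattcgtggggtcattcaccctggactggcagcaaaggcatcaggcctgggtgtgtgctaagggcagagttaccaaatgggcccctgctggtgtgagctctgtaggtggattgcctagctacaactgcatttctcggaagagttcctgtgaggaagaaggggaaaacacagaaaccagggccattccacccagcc
The Nr0b2 window held CAAGG 3 times, from 201 to 197, from 67 to 63 and from 34 to 30 bases before the start, all on the gene's strand, and no AGGTCA. Of 32851 RefSeq promoter windows of the same length, 46.0% held CAAGG at least once, 3.00% held it at least 3 times and 14.02% held AGGTCA. The first Rxra window held CAAGG once, and the second held AGGTCA from 87 to 82 bases before the start on the opposite strand and from 48 to 43 bases on the gene's strand. Cyp8b1 held 1 CAAGG and Slc51b held 1 AGGTCA. An exact inverted repeat of the hexamer with 1 base between the copies (IR-1, the arrangement FXR and RXR prefer) was in none of the 5 windows and in 0.00609% of all windows. So rare a match was unlikely in any window of 250 bases, and its absence does not show that these genes lack an FXR site. Of the 10 receptors, 9 had windows read, 15 in all, of which 5 receptors held AGGTCA and 6 held CAAGG in at least 1. These are matches of letters, chosen for search after the values were seen.

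LRH-1 and HNF4 alpha, which activate the bile acid synthesis genes that SHP represses, did not pass the test. Nr5a2 (ENSMUSG00000026398, chromosome 1) was at 59.6, 51.6 and 72.7 CPM with RD and 64.5, 44.9 and 52.6 CPM with HCD, and the diets overlapped. Its log2 fold change was -0.18 (standard error 0.18, 95% interval -0.59 to 0.23, edgeR adjusted p = 0.602). Leaving out 1 liver gave values from -0.33 without HCD replicate 1 to -0.04 without RD replicate 3. Hnf4a (ENSMUSG00000017950, chromosome 2) was at 734, 794 and 617 CPM with RD and 615, 470.4 and 586 CPM with HCD, so that RD replicate 3 lay just above HCD replicate 1, and in FPKM the diets overlapped. The log2 fold change of Hnf4a was -0.36 (standard error 0.17, 95% interval -0.76 to 0.04, edgeR adjusted p = 0.279), and -0.44 without HCD replicate 1. Among 20 listed targets of these factors, all tested, 4 passed the test. Besides Cyp8b1 and Cyp7a1, which are in both lists, these were the subunits of the sterol exporter of the bile canaliculus. Abcg5 was at 39.99, 33.6 and 85.5 CPM with RD and 321, 326 and 420.3 CPM with HCD, which gave a log2 fold change of 2.74 (standard error 0.35, edgeR adjusted p = 0.0104). Abcg8 was at 61.4, 60.6 and 113 CPM with RD and 465, 521 and 479.7 CPM with HCD, which gave a log2 fold change of 2.64 (standard error 0.26, edgeR adjusted p = 0.00407). Without HCD replicate 1 the log2 fold changes were 2.81 for Abcg5 and 2.67 for Abcg8. With 1 liver left out Abcg8 was called in 6 of 6 fits and Abcg5 in 5, all but that without RD replicate 1. Both genes are also textbook targets of the liver X receptors. Apob, the structural protein of very low density lipoprotein, was at 4726, 5356 and 4050.2 CPM with RD and 3609.6, 4393 and 4051 CPM with HCD (log2 fold change -0.23, edgeR adjusted p = 0.522). At a raw p no higher than 0.05 the list counted 6 higher and 3 lower of 20, against 11.1% and 9.81% of all genes tested. Its median log2 fold change was 0.18 (-0.003 without HCD replicate 3 to 0.25 without RD replicate 3). The called genes of the list fell to 2 without RD replicate 1 and were 7 with DESeq2.

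RXR alpha pairs with FXR, PXR, CAR, TR and the PPARs on DNA. Rxra (ENSMUSG00000015846, chromosome 2) was at 522, 558 and 468 CPM in the RD livers and 298, 331 and 335 CPM in the HCD livers. The 3 HCD livers lay close together and below every RD liver, with means of 516 ± 44.99 and 321 ± 19.9 CPM (SD, n = 3 per diet). The fitted HCD level was 0.622 times the RD level, or -0.68 on the log2 scale (standard error 0.14, 95% interval -1.01 to -0.36, edgeR adjusted p = 0.0449). Leaving out any 1 of the 6 livers kept the size of the fall (-0.75 to -0.62) and lost the call each time (edgeR adjusted p from 0.0661 without HCD replicate 1, where the log2 fold change was -0.63, to 0.189). Rxra is in the seventh of the 10 length groups, whose median log2 fold change was -0.07, and with the length trend removed its log2 fold change was -0.60 (edgeR adjusted p = 0.0908).

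The other RXR genes, Rxrb and Rxrg, are less abundant in liver. Rxrb was at 31.6, 33.2 and 34.1 CPM with RD and 27.5, 30.9 and 30.1 CPM with HCD (log2 fold change -0.16, standard error 0.13, edgeR adjusted p = 0.503). Rxrg rose from 4.04, 4.12 and 2.95 CPM to 8.69, 9.099 and 9.81 CPM (log2 fold change 1.31, standard error 0.24, edgeR adjusted p = 0.0299), and its call was lost in each of the 6 fits that left out 1 liver (log2 fold change 1.36 without HCD replicate 1). Summed over the 3 genes, RXR mRNA was 154, 162 and 144 FPKM in RD and 99.3, 105 and 110.4 FPKM in HCD. Rxra made up 90.3%, 90.5% and 89.1% of that sum in RD and 82.9%, 83.1% and 83.2% in HCD. The sum over 14 genes that encode partners of RXR (Nr1h4, Nr1i2, Nr1i3, Nr1h2, Nr1h3, Ppara, Ppard, Pparg, Thra, Thrb, Rara, Rarb, Rarg and Vdr) was 221, 227 and 204 FPKM in RD and 269, 229 and 248 FPKM in HCD. The ratio of Rxra to that sum was 0.629, 0.646 and 0.627 in RD and 0.306, 0.382 and 0.371 in HCD. These sums and ratios were chosen after the values were seen and carry no test.

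**Figure D3:**
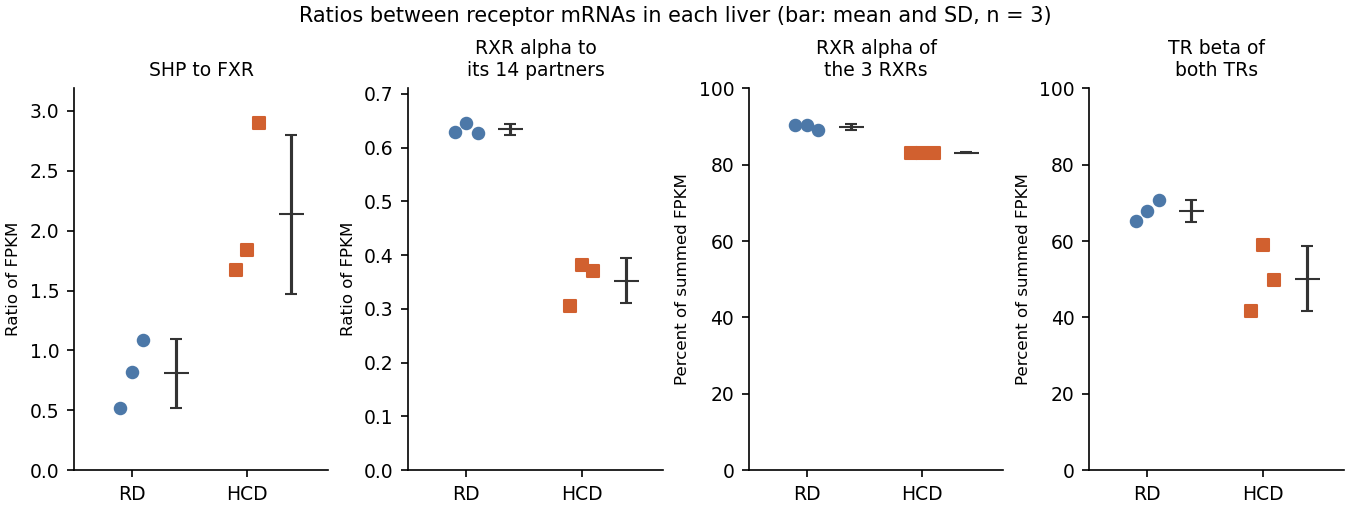
Ratios of FPKM within each liver for Nr0b2 (SHP) to Nr1h4 (FXR) and Rxra to its 14 partners, and the percent of summed FPKM for Rxra among the 3 RXR genes and Thrb among Thra and Thrb, in RD (circles) and HCD (squares), with the mean and SD of 3 livers. The diets do not overlap in any of the 4 panels, with Nr0b2 to Nr1h4 higher and the other 3 lower in HCD. The quantities were chosen after the values were seen, and those with Nr0b2 or Rxra draw on the same data as the calls of these genes. A further share, that of Pparg among the 3 PPAR genes, is not shown and overlapped between diets (mean 11.5% in RD and 15.9% in HCD).

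The xenobiotic receptors were higher in HCD on average without passing the test. Nr1i2, the gene of PXR (ENSMUSG00000022809, chromosome 16), was at 47.2, 44.9 and 61.4 CPM with RD and 80.2, 62.9 and 74.5 CPM with HCD, where the lowest HCD liver lay just above the highest RD liver, and in FPKM the diets overlapped. The log2 fold change of Nr1i2 was 0.50 (standard error 0.16, 95% interval 0.13 to 0.87, edgeR adjusted p = 0.133). Without HCD replicate 1 it was 0.42. Nr1i3, the gene of CAR (ENSMUSG00000005677, chromosome 1), was at 23.4, 20.9 and 7.902 CPM with RD and 44.1, 17.3 and 22.1 CPM with HCD. RD replicate 3 was low and HCD replicate 1 high, and the diets overlapped. Its log2 fold change was 0.69 (standard error 0.44, 95% interval -0.33 to 1.704, edgeR adjusted p = 0.416) and 0.18 without HCD replicate 1.

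Of 26 listed target genes of CAR and PXR, 23 were tested, and 20 of these had a higher estimate with HCD. The 4 that passed the test were all higher. Cyp3a11, the main drug-oxidizing cytochrome P450 induced by PXR, was at 2574, 2265 and 3360.2 CPM with RD and 5324, 5968 and 5842 CPM with HCD, which gave a log2 fold change of 1.06 (standard error 0.20, edgeR adjusted p = 0.0329). It was called in 2 of the 6 fits that left out 1 liver, without RD replicate 3 and without HCD replicate 1 (1.11). Cyp2a5, a coumarin hydroxylase, was at 215, 187 and 212 CPM with RD and 750.0, 445 and 627 CPM with HCD (log2 fold change 1.57, edgeR adjusted p = 0.0124, called in 4 of the 6 fits). It can share reads with the near-identical Cyp2a4, which was at 657 CPM in HCD replicate 1 and at 5.64 CPM or less elsewhere, so its value in that library is uncertain, and without it the log2 fold change was 1.39. Gstm1, a glutathione transferase with close paralogs, was at 1477, 1881 and 2216 CPM with RD and 3143, 4950.3 and 6019 CPM with HCD (log2 fold change 1.34, edgeR adjusted p = 0.0407). Of the 6 fits it was called in 1, without HCD replicate 1 (1.56), with an edgeR adjusted p of up to 0.167 in the others, and the call was lost with the length trend removed (edgeR adjusted p = 0.0646). Abcb1a, a drug efflux pump with a close paralog, was at 1.39, 0.907 and 1.69 CPM with RD and 26.99, 5.51 and 5.92 CPM with HCD, with HCD replicate 1 far above the others, which gave a log2 fold change of 3.25 (edgeR adjusted p = 0.0408, called in 2 of the 6 fits) that was 2.08 without that library. Cyp2b10, the classical CAR target, was likewise higher in all HCD livers and highest in HCD replicate 1, at 2.11, 1.33 and 1.52 CPM with RD and 44.7, 3.72 and 11.996 CPM with HCD, and did not pass the test (log2 fold change 3.60, standard error 0.81, edgeR adjusted p = 0.0522), with 2.23 without HCD replicate 1. It was called with no filter on low counts (edgeR adjusted p = 0.00502), by DESeq2 (adjusted p = 0.00518) and without HCD replicate 2 (edgeR adjusted p = 0.0227). Cyp2b9, which can share reads with Cyp2b13, was at 0 in all RD livers and at 445, 0 and 3.81 CPM with HCD and was not tested. At a raw p no higher than 0.05 the list counted 11 higher and 1 lower of 23, against 11.1% higher and 9.81% lower over all genes, and its median log2 fold change was 0.76 (0.58 to 0.90 with 1 liver left out). The number called was 9 with DESeq2, 10 with no filter, 0 without RD replicate 1 or 2, 2 without RD replicate 3 and 1 without HCD replicate 3. Without HCD replicate 1 the same 4 genes were called, and without HCD replicate 2 there were also 4, but Cyp3a11 and Gstm1 were replaced by Cyp2b10 and, as a lower gene, Alas1. Alas1, the rate-limiting enzyme of heme synthesis in liver, was at 654, 498 and 359 CPM with RD and 132, 305 and 119 CPM with HCD, and every HCD liver was below every RD liver. Its log2 fold change was -1.44 (edgeR adjusted p = 0.0803) and -2.004 without HCD replicate 2 (edgeR adjusted p = 0.0238), and it was also called lower with no filter.

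**Figure D4:**
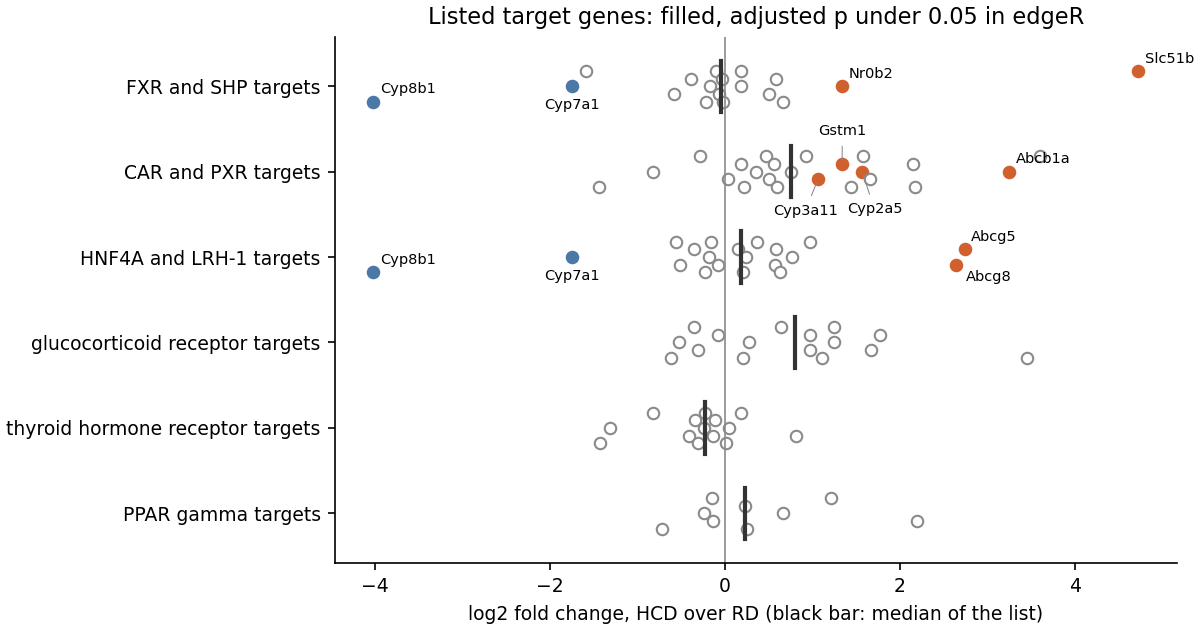
Log2 fold change of HCD over RD for each tested gene of 6 lists of receptor targets (circles, filled and named where the edgeR adjusted p is under 0.05), with a black bar at the median of each list. The CAR and PXR list has a median of 0.76, the list of glucocorticoid receptor targets a median of 0.81 (0.49 without HCD replicate 1) with no gene called, and Cyp7a1 and Cyp8b1 lie at the low end of 2 lists.

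The hormone receptors came next. Nr3c1, the gene of GR (ENSMUSG00000024431, chromosome 18), had the smallest standard error of the 10 and was at 73.7, 67.3 and 71.3 CPM with RD and 75.1, 68.2 and 62.9 CPM with HCD. The diets overlapped, and the log2 fold change was -0.04 (standard error 0.12, 95% interval -0.32 to 0.24, edgeR adjusted p = 0.874), and -0.11 without HCD replicate 1. Of 17 listed GR targets 16 were tested and 0 passed the edgeR test, with 2 called by DESeq2 and 4 with no filter. At a raw p no higher than 0.05, 5 were higher and 0 lower, against 11.1% and 9.81% of all genes tested. The list's median log2 fold change was 0.81, but 0.49 without HCD replicate 1 and 0.39 without RD replicate 1, and as high as 1.19 without RD replicate 3. Mt1, a metallothionein gene, went from 3.45 to 1.19 without HCD replicate 1, and Dusp1, a phosphatase gene, from 0.28 to -0.29, while in that fit edgeR called 3 genes of the list, Cdkn1a (log2 fold change 2.25, adjusted p = 0.00290), Per1 (1.95, adjusted p = 0.0294) and Tsc22d3. Fkbp5, a feedback co-chaperone of GR, was at 19.6, 25.1 and 19.8 CPM with RD and 31.3, 15.3 and 13.9 CPM with HCD (log2 fold change -0.08, edgeR adjusted p = 0.904). Tsc22d3, the glucocorticoid-induced leucine zipper, was at 38.4, 58.7 and 56.5 CPM with RD and 74.5, 92.6 and 196 CPM with HCD (log2 fold change 1.24, edgeR adjusted p = 0.0958), and the diets overlapped for Fkbp5 and not for Tsc22d3. Without HCD replicate 1 edgeR called Tsc22d3 (log2 fold change 1.497, adjusted p = 0.0499), and it was also called with no filter on low counts and by DESeq2.

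Thrb (ENSMUSG00000021779, chromosome 14) was at 39.3, 50.6 and 44.2 CPM with RD and 19.4, 38.9 and 29.5 CPM with HCD. Every HCD liver was below every RD liver, with HCD replicate 1 the lowest. The log2 fold change of Thrb was -0.61 (standard error 0.24, 95% interval -1.16 to -0.06, edgeR adjusted p = 0.194), and -0.38 without HCD replicate 1. Thrb is in the ninth of the 10 length groups, whose median log2 fold change was -0.12. Thra, the gene of the other thyroid hormone receptor, was at 13.1, 14.999 and 11.3 CPM with RD and 16.9, 16.96 and 18.6 CPM with HCD (log2 fold change 0.41, standard error 0.16, edgeR adjusted p = 0.202). As a share of the summed FPKM of both genes, described with no test, Thrb was 65.1%, 67.8% and 70.9% in RD and 41.7%, 58.8% and 49.8% in HCD. Of 14 listed thyroid hormone targets, all tested, 0 were called by edgeR and 2 by DESeq2, with a median log2 fold change of -0.23. At a raw p no higher than 0.05, 1 was higher and 2 lower, against 11.1% and 9.81% of all genes tested. Leaving out RD replicate 3 gave 1 called gene, Bcl3, and leaving out HCD replicate 3 gave 1, Thrsp, both lower. Thrsp, a lipogenic protein named for its thyroid hormone response, was at 164, 121 and 125 CPM with RD and 40.03, 44.1 and 148 CPM with HCD (log2 fold change -0.82, edgeR adjusted p = 0.345), and without HCD replicate 3 the log2 fold change was -1.70 (edgeR adjusted p = 0.0180). Dio1, the deiodinase that makes active thyroid hormone in liver, was at 166, 136 and 74.2 CPM with RD and 92.2, 159 and 138 CPM with HCD (log2 fold change 0.05, edgeR adjusted p = 0.945).

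Pparg (ENSMUSG00000000440, chromosome 6) had the lowest mean FPKM of the 10 and was at 6.97, 5.93 and 4.65 CPM with RD and 16.3, 7.996 and 8.02 CPM with HCD. All HCD livers were above all RD livers, and HCD replicate 1 was far above the other 5. The log2 fold change of Pparg was 0.89 (standard error 0.33, 95% interval 0.14 to 1.64, edgeR adjusted p = 0.176), and 0.45 without HCD replicate 1. Macrophages express Pparg too, and the 8 Kupffer cell markers summed to 134, 165 and 221 CPM in RD and 412, 356 and 174 CPM in HCD. At a raw p no higher than 0.05, 3 of 8 were higher, against 11.1% of all genes tested, and 0 were called by edgeR (2 by DESeq2). The part of these markers in the Pparg values was not tested. Of the 6 adipocyte markers, 3 were in the tables, and the defining genes Adipoq and Cfd were at 0.144 CPM or less in every library. The third, Fabp4, a fatty acid binding protein that macrophages and endothelial cells also express, was at 4.47, 2.58 and 4.04 CPM with RD and 8.59, 3.03 and 5.998 CPM with HCD, highest in HCD replicate 1 as Pparg was (log2 fold change 0.67, edgeR adjusted p = 0.396, and 0.28 without that library). The 3 genes summed to 2.58 to 4.66 CPM in RD and 3.03 to 8.69 CPM in HCD, and their part in the Pparg values was not tested. Of 14 listed PPAR gamma targets 9 were tested, 0 were called by edgeR and 1 by DESeq2, with a median log2 fold change of 0.23. At a raw p no higher than 0.05, 2 of 9 were higher and 0 lower, against 11.1% and 9.81% of all genes tested. Cidec, a lipid droplet protein, was at 1.49, 2.16 and 1.43 CPM with RD and 1.42, 1.59 and 1.297 CPM with HCD (log2 fold change -0.23, edgeR adjusted p = 0.792). Cidea, its relative, was at 0.144 CPM or less in every library and was not tested.

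Within the whole superfamily, 42 of 49 listed genes were in the tables and 37 were tested. Of the 37, 3 were called higher and 1 lower with HCD, against 1.95% and 1.32% of all genes tested. At a raw p no higher than 0.05, 9 were higher and 6 lower, against 11.1% and 9.81% of all genes tested. The 10 receptors gave 3 and 2 of these. The 4 called genes of the superfamily became 0 without RD replicate 1, 1 without RD replicate 2, RD replicate 3 or HCD replicate 3, 2 without HCD replicate 2 and 5 without HCD replicate 1. The lowest estimate of the family was that of Nr1d1, the clock repressor REV-ERB alpha, at 53.6, 61.6 and 33.7 CPM with RD and 32.8, 8.13 and 9.81 CPM with HCD, which did not pass the test (log2 fold change -1.54, edgeR adjusted p = 0.132). edgeR called it lower without HCD replicate 1 (log2 fold change -2.47, adjusted p = 0.00925) and with no filter on low counts (log2 fold change -1.55, adjusted p = 0.0440). Nr4a1, an immediate early gene, had the highest estimate and rested on HCD replicate 1, at 0.288, 0.488 and 6.73 CPM with RD and 45.9, 2.14 and 1.46 CPM with HCD (log2 fold change 2.68, edgeR adjusted p = 0.319), without which its log2 fold change was -0.50. Nr1d1 and Nr4a1, like Alas1, Alas2, Bcl3, Cdkn1a, Dusp1, Fabp4, Mt1 and Per1 above, were named after their values were seen. The median log2 fold change of the 37 was 0.14 (-0.01 without HCD replicate 1 to 0.18 without HCD replicate 2).

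**Figure D5:**
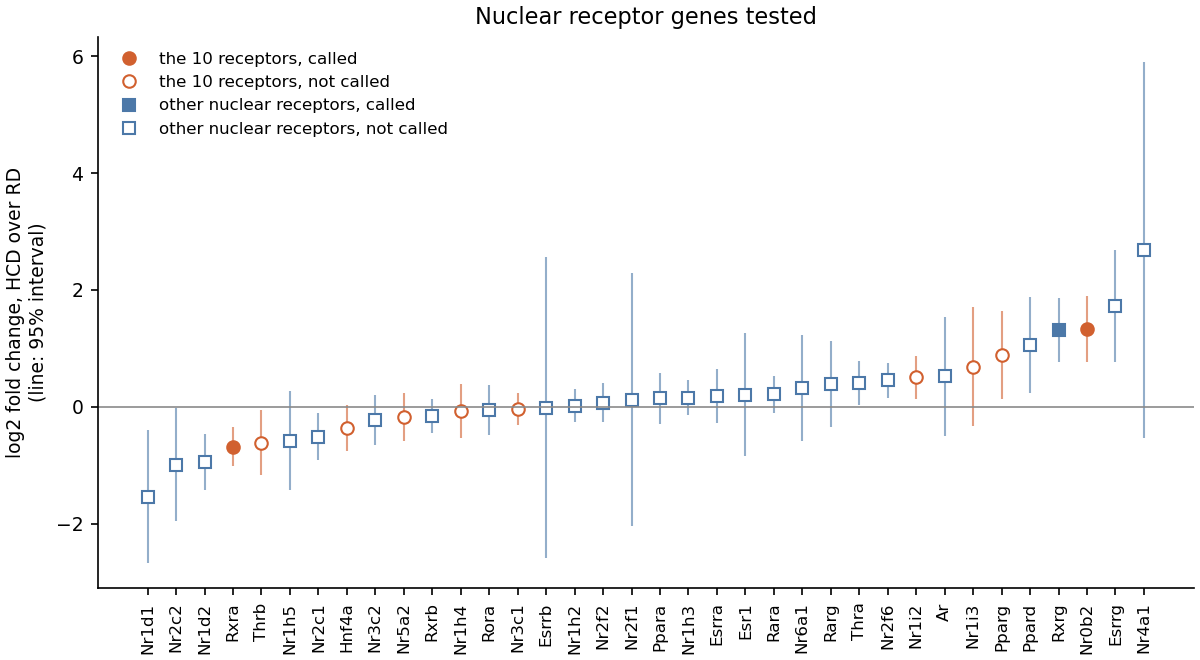
Log2 fold change of HCD over RD with its 95% interval for nuclear receptor genes tested, in order of size, with the 10 receptors as circles and the others as squares, filled where the edgeR adjusted p is under 0.05. Filled symbols are Rxra at -0.68, Rxrg at 1.31 and Nr0b2 at 1.34, and the widest intervals belong to genes of low or uneven counts such as Nr4a1 and Esrrb.

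Over the 6 livers, the genes whose log2 CPM followed Nr0b2 most closely, searching 9117 genes that averaged 5 CPM or more, were Gtpbp6 (Pearson r = 0.996), Oxld1 (r = 0.994) and Rhot1 (r = 0.992). Those closest to Rxra included Ddhd1 (r = 0.994) and Atrip (r = 0.994). Oxld1 had a log2 fold change of 1.23 with an adjusted p of 0.0538 in edgeR, and none of the 5 named here passed the test. The r values describe 6 libraries that share the diet difference, and are given with no test.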

How the data were processed

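RNA of 6 livers, 3 per diet, was analysed in 1 comparison, HCD against RD, with diet and replicate taken from the sample labels. The authors deposited whole-number read counts per gene and FPKM. The submitters' processing notes name GRCm39, STAR, HTSeq, DESeq2 and edgeR, without roles or versions, and strand and annotation are not given in the sources used here. The log2 fold changes and p-values that the authors deposited for the same comparison were not used. Gene lengths from GENCODE M21 matched those implied by the counts and FPKM within 0.1% for about 95.0% of genes. RefSeq promoter windows of GRCm38.p6 supplied the sequences, and GRCm39 positions are not given.

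Counts were fitted in R 4.3.3 with edgeR 4.0.16 (filterByExpr by diet, 13105 of 20673 genes kept, TMM factors 0.886 to 1.07, quasi-likelihood F test of diet without covariates, Benjamini-Hochberg over the genes kept, threshold 0.05). On simulated data with 200 changed genes the fit called few unchanged genes, and it recovered most changes of 2 and a minority of changes of 1 on the log2 scale. Alternatives were DESeq2 1.42.0, other scalings and filters, limma-trend (limma 3.58.1) on log2 of FPKM plus 1 or 0.1, removal of a loess trend with gene length (span 0.5), a replicate block, each liver left out, and other thresholds. Depth was 13771630 to 23129576 counts per library, and p-values measure only the spread between these samples. The study used mice, but the labels only number the livers.

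The receptors and all gene lists were chosen with earlier results of these data known. The text names the 10 receptors, the called genes of each list (up to 4 rises and 4 falls), the first 2 genes of each target list, the 3 genes closest to each called receptor, and markers as lists. Some genes that this rule selects are not reported here.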

Additional observations from a re-analysis of the deposited data

How the results depend on the processing

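Of 170 refits of the 10 receptors, 149 kept direction and side of the threshold, 16 lost a call and 5 changed sign. The sign changes were those of Nr1h4 without RD replicate 2 (0.073 on the log2 scale) and without HCD replicate 2 (0.010), with a range of -0.26 to 0.073 over the livers left out, and of Nr3c1 with the length trend removed (0.067), with the block and the length trend (0.068) and without HCD replicate 3 (0.012, in a range of -0.11 to 0.012), all of genes near 0 in the fit of 6 livers, and the cause was not tested. The 16 lost calls were 7 of 17 refits of Nr0b2 and 9 of 17 refits of Rxra, the only receptors that had a call to lose. DESeq2, both other scalings, library sizes alone, no filter, the higher count minimum and both FPKM fits kept both calls. The 2 receptors called became 0 with the length trend removed, 0 to 1 with 1 liver left out, 5 at a raw p no higher than 0.05 and 1 with a log2 fold change of at least 1. The 4 called nuclear receptors became 7 with DESeq2, 2 with the length trend removed, 0 to 5 with 1 liver left out and 15 at a raw p no higher than 0.05. The 428 called genes became 992 with DESeq2, 649 with no filter, 251 with the length trend removed, 2739 at a raw p no higher than 0.05 and 249 with a log2 fold change of at least 1. With 1 liver left out they ranged from 39 (without RD replicate 1) to 387, with 57 without RD replicate 2, 146 without RD replicate 3 and 104 without HCD replicate 3, in fits of fewer samples.

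Same-numbered livers deviated together with r = -0.08, 0.12 and -0.03, and not every liver correlated best with its own number (RD replicate 3 with HCD replicate 1, r = 0.15). Deviations were taken from the mean of 3 livers per diet, which ties these correlations together. They therefore cannot settle whether same-numbered livers were paired. A fit with the replicate number as a block called 0 of the 10 receptors, 1 nuclear receptor and 136 genes, and with the block and the length trend 0, 1 and 96. Changes well under 2 on the log2 scale were often missed in simulated data at this depth and number of livers.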

Other observations

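Nuclear receptors act through coactivators and corepressors, and 20 listed ones were all tested. None was called by edgeR or by DESeq2. At a raw p no higher than 0.05, 2 of 20 were higher and 2 lower, near the 11.1% and 9.81% of all genes tested. Their log2 fold changes ran from -0.44 to 0.55 with a median of 0.08 (-0.004 to 0.06 with 1 liver left out), a narrower range than that of the 10 receptors (-0.68 to 1.34).

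Of 14 transcription factors that shape hepatocyte identity, 10 had a lower estimate with HCD, and the median log2 fold change was -0.38 (-0.46 to -0.18 with 1 liver left out, the latter without RD replicate 1). Onecut2 passed the test, at 86.6, 82.1 and 68.1 CPM with RD and 42.2, 49.0 and 41.6 CPM with HCD (log2 fold change -0.83, standard error 0.14, edgeR adjusted p = 0.0252), with -0.801 without HCD replicate 1. It lost the call with the length trend removed (-0.65, edgeR adjusted p = 0.0774) and in 3 of 6 fits that left out 1 liver (without RD replicate 1, RD replicate 2 or HCD replicate 3). At a raw p no higher than 0.05 2 of the 14 were higher and 4 lower, against 11.1% and 9.81% of all genes tested.

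Markers of leukocytes, stellate cells, endothelial cells and cholangiocytes held no called gene in edgeR. At a raw p no higher than 0.05 they counted 0 of 4, 2 of 8, 1 of 8 and 0 of 5 tested genes, against 20.9% of all genes tested. DESeq2 called 0, 0, 1 and 0 in these lists. Their summed levels overlapped between diets in each list, at 7.98 to 13.9 against 10.96 to 18.8 CPM for leukocytes, 201 to 216 against 209 to 341 CPM for stellate cells, 116 to 199 against 147 to 228 CPM for endothelial cells and 37.4 to 91.9 against 64.6 to 98.1 CPM for cholangiocytes (RD against HCD).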
